A study of Mus musculus with 36 samples.

Results

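The Cdc2-like kinases Clk1 (ENSMUSG00000026034), Clk2 (ENSMUSG00000068917), Clk3 (ENSMUSG00000032316) and Clk4 (ENSMUSG00000020385) were measured with SLAM-seq in embryonic stem (ES) cells of the mouse. They were taken by gene symbol, and all 4 were present in each of the 6 deposited tables, of 18419 genes that all tables held and 22979 that any table held. In SLAM-seq, the uridine analogue 4-thiouridine (4sU) enters new RNA and is read as T-to-C conversions, and a uridine chase then shows how the labelled RNA is lost. Here 500 µM 4sU was given for 4 h and chased with 50 mM uridine for 0, 90 or 180 min. The study asked whether acute loss of METTL3 (the catalytic subunit of the m6A RNA methyltransferase), YTHDC1 (a nuclear reader of m6A) or ZCCHC8 (a scaffold of the NEXT complex, which brings RNA to the nuclear exosome) changes RNA turnover.

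Each of the 3 lines carried a degron tag on the named protein and was a single clone (12D, Y12H and Z12H in that order). All lines were female Cast x 129S ES cells in which doxycycline drives Xist from the 129S allele, with Bgl stem loops inserted in that allele. All libraries, Ctrl and dTAG alike, came from cells given 1 µg/ml doxycycline for 20 h before and 4 h during the pulse. The dTAG libraries had in addition received dTAG-13, which degrades the tagged protein, from 2 h before doxycycline; the Ctrl libraries had not. With 2 replicates of each arm and chase time there were 12 libraries a line, 18 groups and 36 libraries. By the study's general statement on its cultures, the wells of a replicate were divided from a common batch of cells. Replicates of a clone were independent repeats. The main fits count the 12 libraries of a line as independent, though they come from 2 repeats of 1 clone. Their p-values measure the spread between libraries. Fits with the replicate number as a term take out the difference between repeats, so their p-values measure the spread within repeats.

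CLK kinases phosphorylate SR proteins, the serine- and arginine-rich splicing factors, in nuclear speckles, and so control how much of them is free to act in splicing. Transcripts of the Clk genes are textbook carriers of detained introns: introns that stay in otherwise spliced, polyadenylated RNA, hold it in the nucleus and can be spliced later when CLK activity falls. In Clk1 and Clk4 the detained introns flank an alternative exon whose skipping leaves a transcript without a full kinase.

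The annotation (GENCODE M21, mm10) places Clk1 at chr1:58410189-58424066 on the minus strand, Clk2 at chr3:89164795-89176921 on the plus strand, Clk3 at chr9:57750624-57765860 on the minus strand and Clk4 at chr11:51261730-51281766 on the plus strand. It lists 7, 4, 4 and 7 retained-intron transcripts for Clk1, Clk2, Clk3 and Clk4. The median over 17061 protein-coding genes of the tables was 1, and 1.85% of them had at least the 7 of Clk1 and Clk4. In each of the 4 genes, introns 3 and 4 of the 12 in the principal transcript lay whole inside an exon of a retained-intron transcript. So did intron 6 of Clk1, intron 11 of Clk2 and introns 7 and 8 of Clk4. Introns 3 and 4 measured 871 and 387 bases in Clk1, 694 and 346 in Clk2, 2100 and 276 in Clk3, and 1055 and 391 in Clk4. Exon 4 between them is printed here from retained-intron transcripts that hold both, because these introns were held in all 4 genes. Capitals mark the exon and lower case marks 20 bases of intron 3 before it and of intron 4 after it, 5′ to 3′ on the gene's strand. The stretches shown are chr1:58420101-58420231 (Clk1), chr3:89169598-89169722 (Clk2), chr9:57758607-57758743 (Clk3) and chr11:51273058-51273188 (Clk4) of mm10, from GENCODE M21 transcripts.
Clk1: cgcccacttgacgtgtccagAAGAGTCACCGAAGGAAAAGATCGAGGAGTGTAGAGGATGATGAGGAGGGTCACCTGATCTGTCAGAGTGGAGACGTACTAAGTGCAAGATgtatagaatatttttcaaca
Clk2: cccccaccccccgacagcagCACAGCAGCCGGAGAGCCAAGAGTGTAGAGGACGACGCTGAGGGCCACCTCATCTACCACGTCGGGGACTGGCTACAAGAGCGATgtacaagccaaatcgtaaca
Clk3: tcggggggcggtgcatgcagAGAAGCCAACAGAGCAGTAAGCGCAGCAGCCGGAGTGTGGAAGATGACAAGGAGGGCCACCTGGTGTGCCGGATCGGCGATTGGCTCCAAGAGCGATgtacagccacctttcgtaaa
Clk4: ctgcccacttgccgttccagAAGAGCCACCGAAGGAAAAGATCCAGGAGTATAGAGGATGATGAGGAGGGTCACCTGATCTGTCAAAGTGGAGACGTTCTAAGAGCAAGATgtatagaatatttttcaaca

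Exon 4 was 91 bases long in Clk1 and Clk4, 85 in Clk2 and 97 in Clk3, none a multiple of 3. The exons of Clk1 and Clk4 were identical at 85 of 91 bases (93.4%). The length that the tables give for each gene (4865, 3168, 4130 and 3543 bases for Clk1 to Clk4) was that of its longest annotated transcript, in every case a retained-intron transcript holding introns 3 and 4. Reads from spliced and from intron-holding RNA of these genes share 1 row in the tables and cannot be told apart here. No window of 81 bases, the read length, was shared between transcripts of the 4 genes, counting exact matches. The end of Clk3 overlaps the opposite-strand gene Edc3 by 1876 bases, and transcripts of the pair shared 12.9% of the windows of Clk3. The start of Clk4 overlaps the opposite-strand gene BC049762 by 1317 bases, but no exons met. On its own strand Clk4 also holds the misc_RNA gene Gm25082 (255 bases), which overlaps annotated exons of Clk4 and had no entry in the tables. Clk2 held 8 matches to GGACT, the commonest form of the m6A consensus, on the transcript strand of its longest transcript, or 2.53 per kb, which was more than in 95.5% of 16934 genes. Clk1, Clk3 and Clk4 held 0.82, 0.97 and 0.85 per kb, below the median of 1.04 per kb.

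The libraries held 5274684 to 18652000 assigned reads, with the fewest in the ZCCHC8 line. Since tagged proteins are degraded after translation, transcript levels of the targeted genes do not check the degradation: Mettl3 and Zcchc8 did not pass the test in their own lines, and Ythdc1 rose by 0.60 on the log2 scale in the YTHDC1 line. All 5 ES cell markers were read in every line, with a summed level of 1645 to 2691 CPM (read counts scaled to library size, with TMM factors). The 7 fibroblast markers, for the feeder cells that were removed by preplating before the experiment, summed to 5.82 to 27.4 CPM. The median of that sum was 16.3 CPM without and 17.7 CPM with dTAG-13.

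Clk1 was the most abundant of the 4 per length. In the 12 libraries without chase it lay between 23.4 and 47.2 CPM per kb of table length, with a median of 30.4. Clk4 was second, at 8.95 to 20.0 with a median of 14.0 CPM per kb. Clk2 lay between 8.08 and 12.7 (median 10.8) and Clk3 between 6.48 and 9.81 (median 8.32) CPM per kb. Clk1 was above each of the others in 36 of 36 libraries, and Clk4 above Clk3 in 36 of 36. Clk2 and Clk3 changed places: Clk2 was higher per kb in 12 of 12 libraries without chase, in 4 of 12 at 90 min and in 6 of 12 at 180 min. The order of Clk2 and Clk3 depends on the lengths used, here 3168 and 4130 bases. Without retained-intron transcripts their annotated exons cover 2395 and 3517 bases, and the order by those lengths was not tested. Clk4 was below Clk2 in 2 libraries, both without chase, and above it in all others.

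All 4 kinase genes took a larger share of the reads at 180 min of chase than at 0 min in every pair of the same line, arm and replicate. Clk4 had the greatest fold change, from 31.7 to 70.9 CPM (median 49.5) over the 12 libraries without chase to 113.4 to 196.0 CPM (median 148.8) over the 12 libraries at 180 min. Clk1 went from 114.0 to 229.8 CPM (median 148.0) up to 260.9 to 500.2 CPM (median 321.7). Neither gene had a library at 180 min as low as its highest library at 0 min. Clk3 went from 26.8 to 40.5 CPM (median 34.4) up to 46.0 to 87.0 CPM (median 71.2), also without overlap. Clk2 had the smallest fold change, from 25.6 to 40.1 CPM (median 34.3) up to 36.6 to 68.4 CPM (median 51.7), and its ranges overlapped. CPM is a share of the library, and in bulk RNA fewer cells expressing a gene and less of its RNA per cell cannot be told apart.

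**Figure D1:**
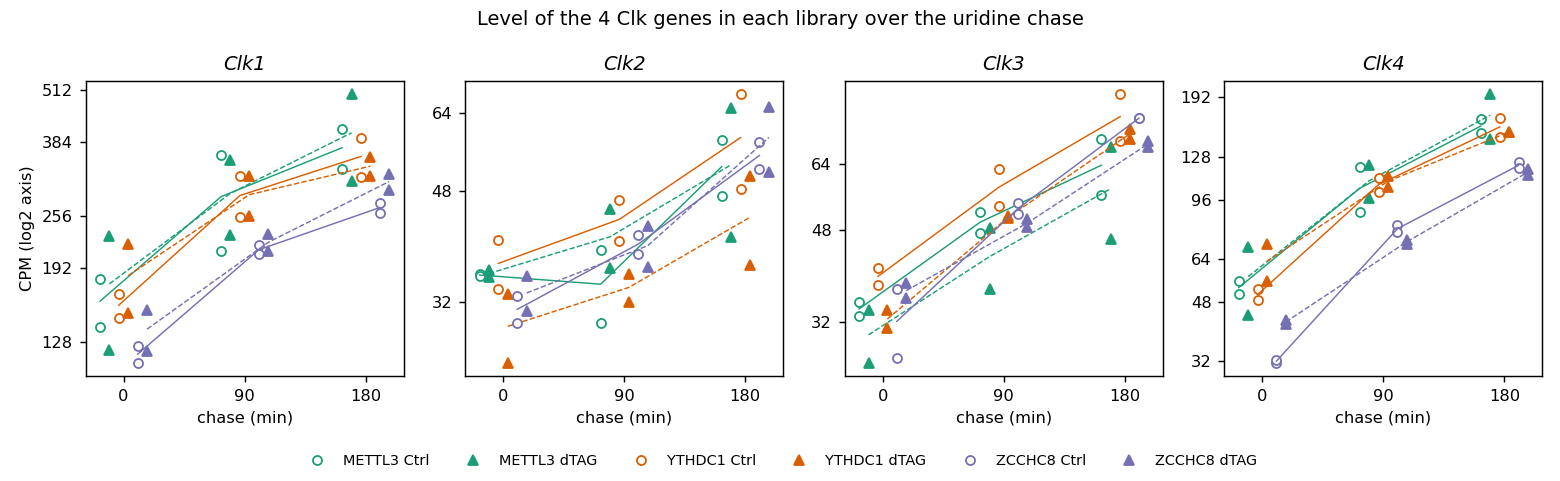
Level of Clk1, Clk2, Clk3 and Clk4 (CPM, log2 axis, a separate scale for each gene) against chase time in minutes, 1 point a library; open circles are Ctrl, filled triangles dTAG, colours the 3 lines, points are shifted sideways within a time, and lines (broken for dTAG) join the means of 2 replicates. Clk4 rises from 31.7 to 70.9 CPM at 0 min to 113.4 to 196.0 CPM at 180 min, and for Clk2 the dTAG libraries of the YTHDC1 line lie below its Ctrl libraries at 0 and 90 min.

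Within lines, Clk4 libraries of the METTL3 line had 55.0 and 50.6 (Ctrl) and 69.8 and 43.9 (dTAG) CPM at 0 min, and 165.8 and 150.5 (Ctrl) and 196.0 and 144.6 (dTAG) CPM at 180 min. In the YTHDC1 line they had 52.2 and 48.5 (Ctrl) and 70.9 and 55.4 (dTAG) CPM at 0 min, against 167.2 and 147.2 (Ctrl) and 152.0 and 151.8 (dTAG) CPM at 180 min. In the ZCCHC8 line they had 31.7 and 32.4 (Ctrl) and 41.3 and 42.3 (dTAG) CPM at 0 min, against 123.7 and 118.6 (Ctrl) and 113.4 and 117.9 (dTAG) CPM at 180 min. The rise was present within each arm and each replicate, and the 0 and 180 min libraries did not overlap in any line.

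The change at 180 min against 0 min was tested in each line with arm as a second term (edgeR quasi-likelihood, Benjamini-Hochberg adjustment over all genes). Clk4 rose by 1.55 ± 0.17, 1.45 ± 0.11 and 1.68 ± 0.078 (log2, SE) in METTL3, YTHDC1 and ZCCHC8 cells (edgeR adjusted p = 0.00083, 1.1e-05 and 7.8e-14), or 2.93-, 2.73- and 3.20-fold. Clk1 rose by 1.18 ± 0.25, 1.02 ± 0.15 and 1.17 ± 0.066 (edgeR adjusted p = 0.011, 0.00027 and 1.2e-12). Clk3 rose by 0.88 ± 0.16, 1.09 ± 0.094 and 1.09 ± 0.082 (edgeR adjusted p = 0.0058, 1.8e-05 and 8.7e-11). For Clk2 the change was 0.54 ± 0.17 in the METTL3 line, which did not pass (edgeR adjusted p = 0.052), and 0.62 ± 0.15 and 0.82 ± 0.085 in the YTHDC1 and ZCCHC8 lines, which did (edgeR adjusted p = 0.0058 and 1.8e-08). With the replicate number as a block the Clk2 change of the METTL3 line passed as well (0.52, edgeR adjusted p = 0.0012), and it was 0.78 without replicate 1 and 0.32 without replicate 2. All 4 genes were higher at 180 min in 12 of 12 pairs of the same line, arm and replicate.

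The members called higher numbered 3 of 4, 4 of 4 and 4 of 4 in the METTL3, YTHDC1 and ZCCHC8 lines, where 10.3%, 23% and 30.7% of all genes tested were called higher. By size of the rise Clk4 stood at 98 of 14413 genes, 202 of 14199 and 96 of 13962. Clk1 stood at 280, 638 and 352, Clk3 at 820, 522 and 464, and Clk2 at 2276, 2240 and 1133 in the same lines. The median change of all genes lay between -0.048 and -0.01 (log2). The rise was partial at 90 min, when 7 of 12 tests passed: Clk1, Clk3 and Clk4 in the YTHDC1 line and all 4 genes in the ZCCHC8 line, where 5.73% and 15.6% of genes were called higher. In the METTL3 line, with 0.243% called higher at 90 min, no member passed, with 0.94 ± 0.17 for Clk4 (edgeR adjusted p = 0.054), and 3 of 4 had an unadjusted p under 0.05. From 90 to 180 min all 4 went on upwards in 12 of 12 pairs.

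**Figure D2:**
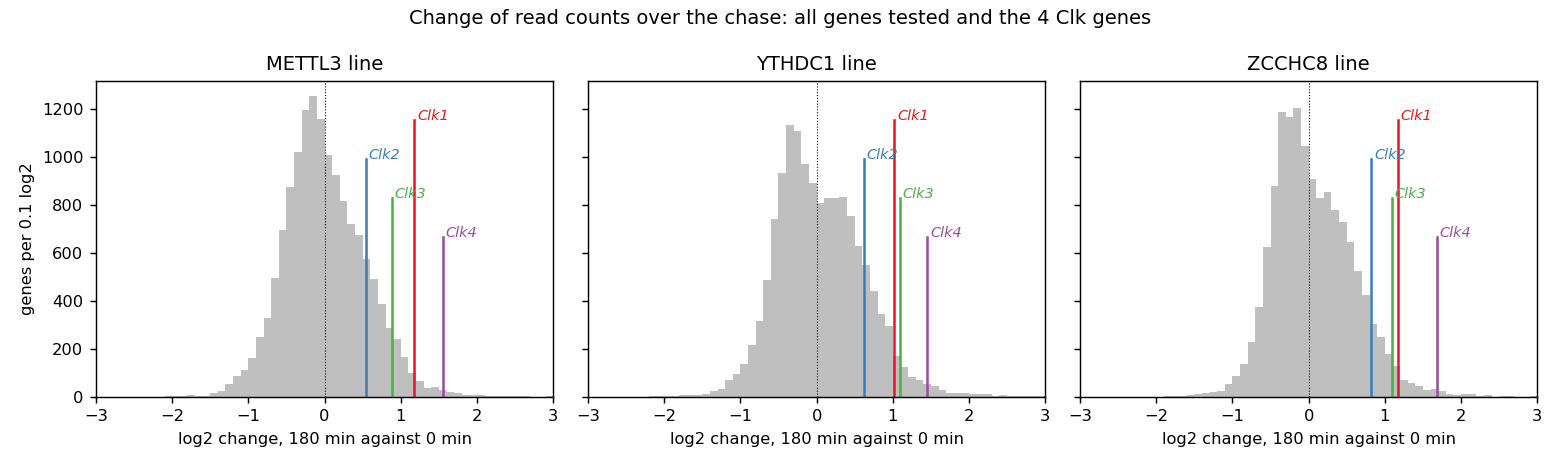
Distribution of the log2 change at 180 min against 0 min over all genes tested in each line (grey, genes per 0.1 log2, values beyond 3 drawn at the edge), with the 4 Clk genes as coloured lines whose height has no meaning. Clk4 stands at 1.55, 1.45 and 1.68 in the METTL3, YTHDC1 and ZCCHC8 lines, in the upper tail of each.

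From Ctrl libraries alone the rises had the same size (1.18 for Clk1, 0.87 for Clk3 and 1.55 for Clk4 in the METTL3 line, and 0.67 for Clk2 in the YTHDC1 line), but these 4 no longer passed (edgeR adjusted p = 0.20, 0.16, 0.064 and 0.080), with 2 libraries a group in place of 4. Edc3, the neighbour that shares windows with Clk3, changed by 0.036, 0.31 and 0.23 (log2) over the chase, less than Clk3 in each line.

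At the end of the pulse nearly all Clk1 and Clk4 RNA was new. The new-to-total ratio, estimated per gene and library from T-to-C conversions, was 0.874 to 0.995 (median 0.975) for Clk1 and 0.865 to 0.986 (median 0.962) for Clk4 in the 12 libraries without chase. Clk2 lay between 0.713 and 0.921 (median 0.876) and Clk3 between 0.728 and 0.861 (median 0.797). Clk1 and Clk4 thus lay above Clk3 in every one of these libraries. Among genes with at least 100 reads in both Ctrl libraries, whose median ratio was 0.598, 0.578 and 0.514 in the METTL3, YTHDC1 and ZCCHC8 lines, 6.05%, 3.37% and 2.63% had a higher mean ratio than Clk1 and 29.4%, 26.1% and 20.5% a higher one than Clk3. The T-to-C rate of Clk1 was 6.05% to 10.2% of sequenced T positions at 0 min and 1.11% to 2.57% at 180 min.

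The ratio then fell in all lines. At 180 min it was 0.185 to 0.525 (median 0.327) for Clk1, 0.163 to 0.521 (median 0.314) for Clk4, 0.181 to 0.568 (median 0.345) for Clk2 and 0.158 to 0.536 (median 0.350) for Clk3. The lowest value of every member came from the same library, METTL3 dTAG 180 min replicate 1, whose median ratio over 8289 genes was also the lowest of its line (0.352, against 0.433 to 0.661 in its other libraries). In Ctrl libraries the ratio of Clk1 halved in 124 min (METTL3), 105 min (YTHDC1) and 158 min (ZCCHC8), and that of Clk4 in 118, 107 and 149 min. For Clk2 the fitted slopes gave 128, 125 and 203 min and for Clk3 161, 132 and 227 min. For 87.1% to 97.4% of the genes in these fits the ratio fell more slowly than for the member compared, or rose. The ratio falls when labelled RNA is lost and also when unlabelled RNA is added. These halving times are therefore not half-lives of the RNA. The median slope gave a halving time of 720 min in the METTL3 line and 565 min in the YTHDC1 line. Times beyond the 180 min of chase, also those of Clk2 and Clk3 in the ZCCHC8 line, are extrapolated from fitted slopes. In the ZCCHC8 line the median slope was a rise of 0.041 log2 units per h. Halving times of that line are therefore not on the same footing as those of the others.

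**Figure D3:**
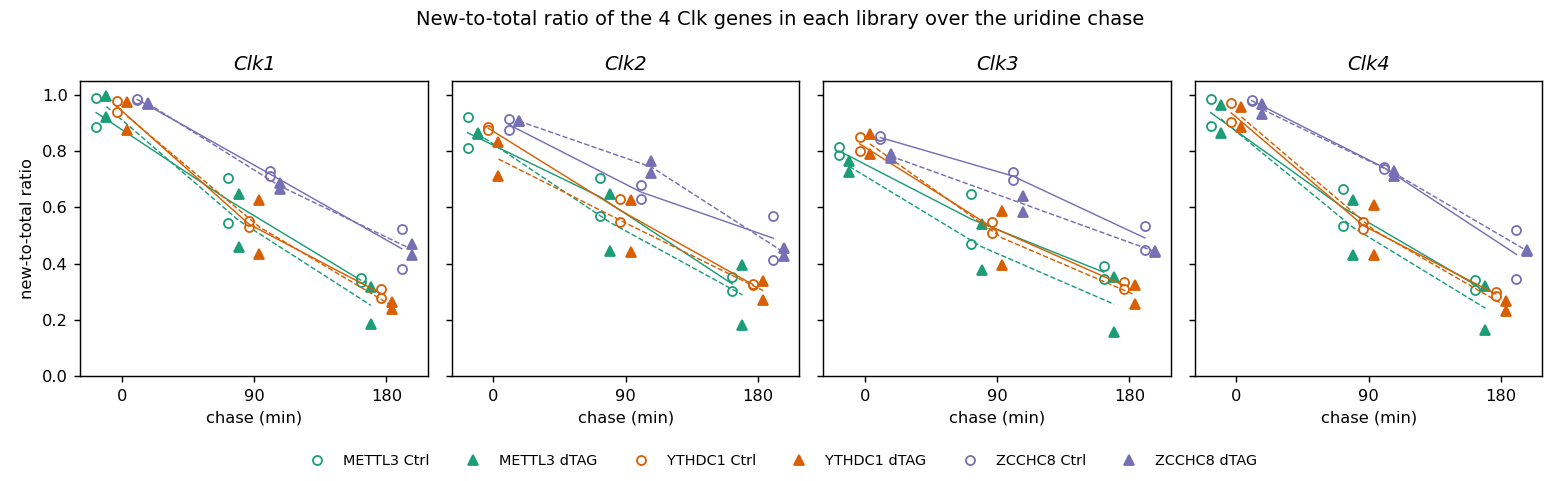
New-to-total ratio (0 to 1) of the 4 Clk genes against chase time in minutes, 1 point a library, with open circles for Ctrl, filled triangles for dTAG, colours for the lines, points shifted sideways within a time, and lines through the means of 2 replicates. Clk1 and Clk4 start at 0.865 or above in all 12 libraries, and the lowest 180 min point of each gene is the METTL3 dTAG replicate 1 library.

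High labelling and a rise over the chase went together across the whole data set. Of genes with a Ctrl ratio of 0.75 or more at the pulse end, 27.5% (METTL3), 53.6% (YTHDC1) and 74.1% (ZCCHC8) were called higher at 180 min, with medians of 0.37, 0.42 and 0.41 (log2). Of genes with a ratio below 0.25, 0% to 0.269% were called higher, with medians of -0.28, -0.40 and -0.34. All 4 Clk genes fell in the upper class in every line. Within it, 0.277%, 0.784% and 0.0878% of genes rose more than Clk4 and 2.19%, 5.96% and 1.58% more than Clk1, but 32.8%, 30.7% and 12.0% rose more than Clk2. Reads with many T-to-C conversions also meet the mismatch limit of the alignment more often, and the part of that limit in the rise was not tested.

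The rise lay mostly in unlabelled RNA. Multiplying CPM by the ratio splits each level into labelled (new) RNA and unlabelled RNA, the rest. Whether the labelled RNA of chased libraries was all made in the pulse was not tested. In the ZCCHC8 line the median ratio over 7251 genes was 0.50 to 0.54 at 0 min and 0.57 to 0.62 at 90 min. In the other lines it rose in some series of libraries and fell in others. Without chase, the unlabelled part stands for RNA from before the pulse. In chased libraries it also holds RNA made during the chase, after 4sU was withdrawn, so unlabelled does not mean old there. The share of each in the rise was not tested. Unlabelled Clk1 went from 10.1 ± 10.5 to 277.7 ± 91.5 CPM (SD, n = 4 libraries) with the METTL3 degron, from 11.0 ± 11.5 to 251.5 ± 22.4 CPM with the YTHDC1 degron and from 2.96 ± 1.45 to 158.0 ± 18.5 CPM with the ZCCHC8 degron. Unlabelled Clk4 went from 4.44 ± 4.09 to 119.0 ± 30.9 CPM, from 4.23 ± 3.05 to 112.7 ± 5.49 CPM and from 1.37 ± 1.01 to 66.2 ± 7.99 CPM. These gains were past the spread between libraries in each line. For Clk2 and Clk3 the unlabelled level at 180 min was 30.4 to 35.7 and 39.4 to 52.7 CPM (means of 4 libraries), from 3.18 to 5.40 and 6.21 to 7.19 CPM.

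On the scale log2(CPM + 0.5), unlabelled RNA passed the limma test for all 4 genes in all 3 lines, where 39.9%, 50.8% and 44% of genes were called higher. The increases ran from 2.39 ± 0.21 (Clk3, METTL3 line) to 5.62 ± 0.90 (Clk1, METTL3 line), the latter 5.61 ± 0.13 in the ZCCHC8 line. Clk1 stood at 10, 17 and 34 among all genes by this increase and Clk4 at 33, 29 and 52. The sizes behind these ranks depended on the replicate: leaving out 1 replicate gave 4.08 to 7.17, 3.98 to 5.96 and 5.31 to 5.90 for Clk1 and 4.06 to 5.96, 4.08 to 5.56 and 4.95 to 5.64 for Clk4 in the METTL3, YTHDC1 and ZCCHC8 lines. The unlabelled level at 0 min is a small remainder of a ratio near 1.

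Labelled RNA changed little by comparison. In the METTL3 line the change at 180 min was -0.52 ± 0.19 for Clk1, -1.0 ± 0.37 for Clk2, -0.50 ± 0.37 for Clk3 and -0.20 ± 0.17 for Clk4 (log2), and none passed, where 12.9% of genes were called lower. With the replicate block Clk1, Clk2 and Clk3 did pass (limma adjusted p = 0.0021, 0.00081 and 0.048). In the YTHDC1 line labelled Clk1 fell by 0.76 ± 0.14 and Clk2 by 0.77 ± 0.23 (limma adjusted p = 0.0020 and 0.025; 34.6% of genes were called lower), and the values of Clk3 and Clk4, -0.35 ± 0.16 and -0.33 ± 0.13, passed only with the block (limma adjusted p = 0.0052 and 0.0066). In the ZCCHC8 line labelled Clk4 rose by 0.54 ± 0.11 and Clk3 by 0.31 ± 0.11 (limma adjusted p = 0.00024 and 0.026; 18.3% of genes were called higher), with 0.053 ± 0.10 for Clk1 and -0.14 ± 0.11 for Clk2. These directions hold for the scaling by all reads: with factors from the labelled reads themselves, which raise the median gene by 0.28 and 0.34 in the METTL3 and YTHDC1 lines, Clk4 in the METTL3 line (0.13) and Clk3 and Clk4 in the YTHDC1 line (0.041 and 0.065) turned positive and the calls for Clk1 and Clk2 in the YTHDC1 line were lost.

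**Figure D4:**
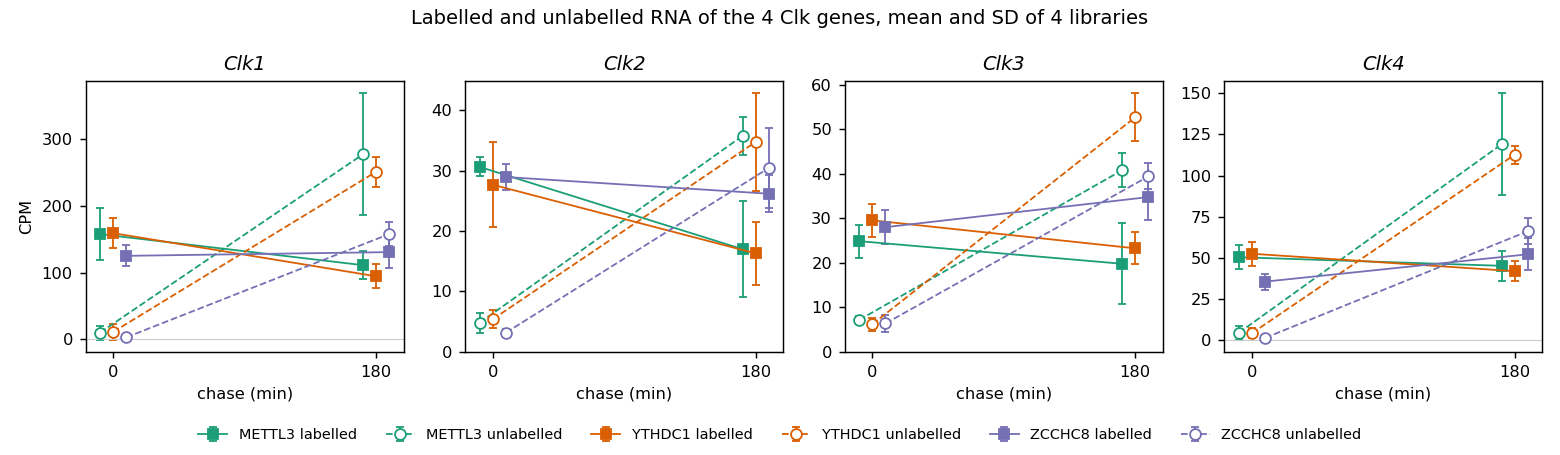
Labelled RNA (filled squares, solid lines) and unlabelled RNA (open circles, broken lines) of the 4 Clk genes in CPM at 0 and 180 min of chase, mean and SD of 4 libraries (2 Ctrl and 2 dTAG) a line, with colours for the lines and a separate scale for each gene. Unlabelled Clk1 goes from 10.1, 11.0 and 2.96 CPM to 277.7, 251.5 and 158.0 CPM, while labelled Clk1 goes from 157.9, 159.4 and 125.3 CPM to 111.3, 94.6 and 130.9 CPM.

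Differences between dTAG and Ctrl libraries were smaller than the changes over the chase. The greatest difference in size was that of Clk2 in the YTHDC1 line. Its Ctrl libraries had 33.6 and 40.1 CPM at 0 min, 40.1 and 46.5 CPM at 90 min, and 48.4 and 68.4 CPM at 180 min. Its dTAG libraries had 25.6 and 32.9 CPM, 32.0 and 35.5 CPM, and 36.6 and 50.7 CPM at the same times. dTAG was lower in 6 of 6 pairs of the same time and replicate, by 0.29 to 0.43 log2 units, and at 0 and 90 min both dTAG libraries lay below both Ctrl libraries.

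The fitted difference of Clk2 in the YTHDC1 line was -0.37 ± 0.12 (95% interval -0.63 to -0.11), which did not pass (edgeR adjusted p = 0.10). With the replicate block it was -0.37 ± 0.059 and passed (edgeR adjusted p = 8.9e-05), as it did in DESeq2 (adjusted p = 0.034). Over the 8 alternatives the value stayed between -0.43 and -0.33, with adjusted p between 8.9e-05 and 1.0, and 4 of them passed (the block, DESeq2 and the fits without either replicate). The value of Clk3 in that line was -0.19 ± 0.076, with dTAG lower in 5 of 6 pairs, and it passed only with the block (-0.18, edgeR adjusted p = 0.024) or without replicate 1. Clk1 and Clk4 had values of 0.054 ± 0.12 and 0.10 ± 0.088. Without the block 5.25% of genes were called in either direction in this line and none of the 4 members, and with it 27.3% were called and 2 of the 4.

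In the ZCCHC8 line Clk1 rose. Its Ctrl libraries had 124.9 and 114.0 CPM at 0 min, 217.7 and 207.2 CPM at 90 min, and 275.3 and 260.9 CPM at 180 min. Its dTAG libraries had 152.7 and 121.6 CPM, 231.3 and 211.3 CPM, and 323.4 and 295.8 CPM. dTAG was higher in 6 of 6 pairs, by 0.028 to 0.29 log2 units, but at 0 and 90 min the arms overlapped. The fitted difference was 0.21 ± 0.053 (edgeR adjusted p = 0.0024), the only 1 of 12 level responses to pass, in a line where 39.6% of genes were called. Clk2, Clk3 and Clk4 had 0.11 ± 0.069, 0.011 ± 0.065 and 0.078 ± 0.062, and none passed.

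Clk4 of the ZCCHC8 line changed sides during the chase. At 0 min both dTAG libraries (41.3 and 42.3 CPM) lay above both Ctrl libraries (31.7 and 32.4 CPM), and both lay below at 90 min (71.0 and 73.1 against 80.6 and 76.9 CPM) and at 180 min (113.4 and 117.9 against 123.7 and 118.6 CPM). From the 0 min libraries alone the difference was 0.43 ± 0.10 (edgeR adjusted p = 0.0056), and from the 180 min libraries alone -0.0086. The 0 min fit was the only 1 to pass of 8 alternatives to the fit over all times (edgeR or DESeq2 adjusted p = 0.0056 to 0.95). The change of the response between these times was -0.44 ± 0.12, which did not pass (edgeR adjusted p = 0.63). No gene passed this test in any line by edgeR (0% called), and of the members only Clk3 (-0.33 ± 0.16) and Clk4 of this line had an unadjusted p under 0.05.

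In the METTL3 line no member passed, where 20.1% of genes were called. The values were 0.12 ± 0.20 for Clk1, 0.11 ± 0.14 for Clk2, -0.15 ± 0.13 for Clk3 and 0.12 ± 0.14 for Clk4, with 95% intervals that reach from -0.44 to 0.56. Clk3 was lower in dTAG in 5 of 6 pairs and the others in 2 or 3 of 6. The block changed none of these 4 calls.

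**Figure D5:**
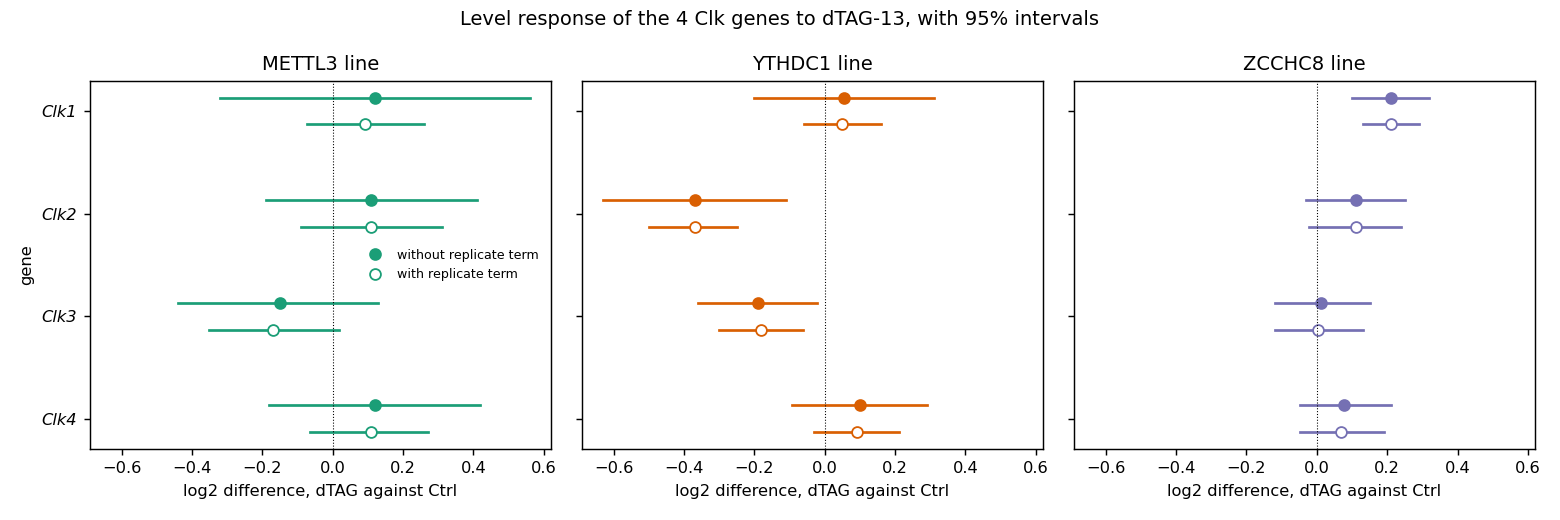
Log2 difference of read counts, dTAG against Ctrl, for the 4 Clk genes in each line, with 95% intervals, from fits without (filled) and with (open) the replicate number as a term, 12 libraries a line. Clk2 in the YTHDC1 line lies at -0.37 and Clk1 in the ZCCHC8 line at 0.21, and in the METTL3 line every interval spans 0.

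Differences between lines were tested in 1 fit over all 36 libraries, with 12 tests over the 4 genes. Clk2 passed: its response in the METTL3 line exceeded that in the YTHDC1 line by 0.46 ± 0.16 (edgeR adjusted p = 0.041, and at most 0.029 in 4 alternatives), where 10.3% of 15105 genes were called in that direction. Its response in the ZCCHC8 line exceeded that in the YTHDC1 line by 0.43 ± 0.16 (edgeR adjusted p = 0.079, and 0.0026 with the replicate block), where 7.2% of genes were called in that direction. The pair of differences share the YTHDC1 libraries. The other 10 values lay between -0.046 and 0.16 and none passed, and 23.7% of genes were called between the ZCCHC8 and METTL3 lines.

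No difference in labelling at the pulse end passed. The log2 difference of the ratio lay between -0.20 (Clk2, YTHDC1 line) and 0.034 (Clk1, METTL3 line), and 0 of 12 passed the limma test (0 of 12 at an unadjusted p under 0.05), where 10.1%, 0.0227% and 0.069% of genes were called. The 95% intervals of these 12 differences reach from -0.81 (Clk3, METTL3 line) to 0.63 (Clk2, METTL3 line), so this test leaves sizable differences unresolved. Labelled RNA at the pulse end differed by -0.52 to 0.39, again with 0 of 12 called by limma (Clk4 of the ZCCHC8 line alone had an unadjusted p under 0.05), where 0%, 0% and 4.03% of genes were called. Clk2 in the YTHDC1 line had the lowest value (-0.52 ± 0.33), and its ratio in dTAG replicate 1 was 0.713 against 0.888 in Ctrl replicate 1.

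Unlabelled RNA at the pulse end was higher with dTAG in the ZCCHC8 line for 3 members, where 6.56% of genes were called higher. Clk1 had 2.19 and 1.53 CPM in Ctrl and 4.84 and 3.30 CPM in dTAG, a rise of 0.99 ± 0.18 (log2 of CPM + 0.5, limma adjusted p = 0.0024). Clk3 had 4.29 and 5.34 CPM against 7.91 and 8.01 CPM, a rise of 0.73 ± 0.19 (limma adjusted p = 0.023). Clk4 had 0.704 and 0.586 CPM against 2.78 and 1.41 CPM, a rise of 1.17 ± 0.24 (limma adjusted p = 0.0052). These are small remainders: the posterior intervals (5% to 95%) of the Clk4 ratio were 0.941 to 0.991 and 0.947 to 0.994 in Ctrl and 0.895 to 0.959 and 0.934 to 0.984 in dTAG, and they overlap. Clk2 had -0.02 ± 0.26 and did not pass. In the METTL3 and YTHDC1 lines, with 5.27% and 0.0212% of genes called higher, the values ran from -0.49 to 0.84 and none passed.

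Label loss over the chase was compared as the slope of the log2 ratio per h, and the dTAG slope less the Ctrl slope is given. None of 12 limma tests passed (0 at an unadjusted p under 0.05), where 0.471%, 0% and 0% of genes were called in the METTL3, YTHDC1 and ZCCHC8 lines. In the METTL3 line the values were -0.18 ± 0.10 for Clk1, -0.095 ± 0.13 for Clk2, -0.18 ± 0.13 for Clk3 and -0.16 ± 0.11 for Clk4 (limma adjusted p = 0.86 to 0.99). They were larger in size in replicate 1, at -0.31, -0.28, -0.34 and -0.29 with a median of -0.067 over 8289 genes, and all 4 passed without replicate 2 (limma adjusted p = 0.018, 0.022, 0.00072 and 0.012), where 5.43% of genes were called. That fit has 1 library a group, and its spread is the scatter of 3 time points about a line, not that between replicates. In replicate 2 they were -0.044, 0.089, -0.019 and -0.022 with a median of 0.044. Replicate 1 holds the dTAG 180 min library with the lowest median ratio of its line, and its part in this was not tested. In the other lines the differences lay between -0.07 and 0.04.

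The genes with the most similar pattern were picked by Pearson's r over the means of the 18 groups, after taking away the line mean, among 13630 genes. Clk1 and Clk4 were each other's nearest gene (r = 0.991). Next to Clk1 came Mcl1 (0.991), an anti-apoptotic BCL2 family member, and Klf6 (0.99), a zinc finger transcription factor. Next to Clk4 came Abraxas2 and Klf6 (both 0.989). Clk3 was nearest to Atxn1 (0.991), then Xkr6 and Siah1a, and Clk2 to Chpf2 (0.963), then Zfp607a and Snhg11. Among the members, Clk2 was the least like Clk1 (r = 0.818). The groups share libraries and the chase, so these values describe a common time course.

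The other splicing kinases and their substrates moved in both directions over the chase. Over all genes, 10.3%, 23% and 30.7% were called higher and 5.84%, 18% and 29.9% lower at 180 min in the METTL3, YTHDC1 and ZCCHC8 lines, beside which the counts below are to be read. Of 13 SR proteins, 1, 1 and 1 were higher and 1, 2 and 7 lower in the same lines, with medians of -0.02, -0.10 and -0.19 against -0.047, -0.012 and -0.010 for all genes. The gene that rose was Srsf12 in each (0.99 ± 0.22, 0.78 ± 0.19 and 0.60 ± 0.19), and Srsf9 fell in each (by 0.50, 0.76 and 0.65). Tra2b fell in the YTHDC1 line (-0.26 ± 0.073) and Srsf7 in the ZCCHC8 line (-0.50 ± 0.064). Of the SRPK family and PRP4 kinase, which also phosphorylate SR proteins or spliceosome parts, 3 of 4 were tested. Srpk1 fell by 0.61 ± 0.10, 0.65 ± 0.073 and 0.70 ± 0.085, and Prpf4b rose by 0.45 ± 0.084 and 0.28 ± 0.056 in the YTHDC1 and ZCCHC8 lines. Srpk2 fell in the ZCCHC8 line (-0.29 ± 0.082).

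Of the DYRK and HIPK kinases, which belong with CLK to the CMGC group, 7 of 9 were tested and 1, 3 and 5 rose over the chase, with none lower. Hipk3 rose in each line (0.67 ± 0.16, 0.67 ± 0.14 and 0.64 ± 0.072). Dyrk1a rose by 0.50 ± 0.082 in the YTHDC1 line and Dyrk1b by 0.66 ± 0.15 in the ZCCHC8 line. The speckle scaffold Son rose by 0.28 ± 0.082 and 0.14 ± 0.059 in the YTHDC1 and ZCCHC8 lines, and Srrm2 fell by 0.28 ± 0.11 in the ZCCHC8 line. Among the other genes known for detained introns, Mat2a, an S-adenosylmethionine synthetase, rose by 0.38 ± 0.073 in the ZCCHC8 line, with 0.36 ± 0.36 and 0.41 ± 0.24 in the METTL3 and YTHDC1 lines, which did not pass. Ogt, the O-GlcNAc transferase, fell by 0.25 ± 0.052 in the ZCCHC8 line, with -0.20 ± 0.18 and -0.16 ± 0.12 in the others, which did not pass, and the O-GlcNAcase gene Mgea5 passed in none. Every rise or fall named here passed the edgeR test. The medians of the SRPK list were -0.40, -0.21 and -0.29, of the DYRK and HIPK list 0.034, 0.33 and 0.29, of 3 speckle scaffolds -0.59, -0.074 and -0.16, and of 3 other detained-intron genes 0.07, 0.10 and -0.05.

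In the response to dTAG-13, 20.1%, 5.25% and 39.6% of all genes were called in the METTL3, YTHDC1 and ZCCHC8 lines. Dyrk3 and Dyrk2 rose by 1.34 ± 0.091 and 0.89 ± 0.11, and Srpk1 by 0.48 ± 0.086, in the METTL3 line. Srpk2 fell by 0.33 ± 0.077 in the YTHDC1 line. In the ZCCHC8 line 3 of 13 SR proteins rose, a share close to the 20.1% of all genes called higher there, with Srsf6 (0.17 ± 0.047) and Srsf10 (0.16 ± 0.053) among them, Mgea5 and Mat2a rose by 0.24 ± 0.05 and 0.18 ± 0.06 and Ogt fell by 0.16 ± 0.043. There Dyrk1b rose by 0.48 ± 0.12, while Hipk1 fell by 0.22, Hipk3 by 0.27, Prpf4b by 0.15 and Srrm2 by 0.25.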

How the data were processed

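Total RNA libraries of 36 samples (18 groups of 2) were read as 6 tables, 1 for each line and replicate. Per the labels and the methods of the study, the authors discarded ribosomal RNA reads, aligned the rest to mm10 with STAR 2.5.2b (unique end-to-end hits, mismatches capped) before quantifying with GRAND-SLAM. The deposited read counts per gene are whole numbers. The deposited new-to-total ratio is a fraction (posterior mode, with its mean and quantiles), and the deposited conversions and coverage give the T-to-C rate. The GRAND-SLAM version, its gene filter and its use of strand are not given in the sources used here. Of the per-sample columns, 252 were used and 180 were not.

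Counts were tested in each line with edgeR 4.0.16 (quasi-likelihood, TMM factors, filterByExpr, arm and chase time as terms). CPM used the same factors. The log2 ratio was tested with limma 3.58.1 where all 12 libraries of a line had 100 or more reads and ratios of 0.02 or more. Labelled and unlabelled RNA (CPM times the ratio, or 1 less the ratio) were tested with limma on log2(CPM + 0.5). DESeq2 1.42.0 was an alternative. All p-values were adjusted over all genes (Benjamini-Hochberg, threshold 0.05). The scripts were tested on simulated data with 200 changed genes. R 4.3.3 and Python 3.11.15 were used.

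Libraries held 5274684 to 18652000 reads, and intervals of the ratio cover counting error only. Deviations of same-numbered Ctrl and dTAG libraries from their group means correlated at 0.587 to 0.755 (METTL3), 0.651 to 0.712 (YTHDC1) and 0.175 to 0.187 (ZCCHC8). The study states that wells of a replicate came from 1 batch of cells, so libraries of the same number were counted as pairs. The main fits hold no replicate term and so leave this pairing out. Fits with the number as a block were alternatives, and are given where they change a call. The members and gene lists were chosen with earlier results of these data known. Of the lists, genes that passed were named if among the 2 greatest changes in either direction, and the 3 genes nearest each member were named. Genes named beside these that did not pass were chosen after their values were seen. Alternatives were other size factors, no count filter, other pseudocounts and ratio measures, DESeq2, single chase times or arms, the block, and leaving out each replicate.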

Additional observations from a re-analysis of the deposited data

Results flagged for a closer look

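Clk3 in ZCCHC8 Ctrl 180 min replicate 1 had a new-to-total ratio of 0.535, apart from the other 3 libraries of that line and time (0.445, 0.448 and 0.441) by Dixon's test. Among 72 sets of 4 libraries it was the only 1 to stand apart. Chance alone would mark about 1 set in 20, so this count is no more than chance gives. Sets of different genes share libraries. The same library had the highest median ratio of its line at 180 min over 7251 genes (0.571).

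The response of Clk2 to dTAG-13 differed between lines: that of the METTL3 line exceeded that of the YTHDC1 line by 0.46 on the log2 scale (edgeR adjusted p = 0.041, and 5.8e-05 to 0.029 over 4 alternatives).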

How the results depend on the processing

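Of 471 alternative values, 384 kept their direction and side of the threshold, 22 passed newly, 7 no longer passed, 41 moved and 17 turned direction. The cause was not tested.

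For single genes, the level response in the YTHDC1 line passed for Clk2 with the replicate block (-0.37), in DESeq2 (-0.38) and without either replicate (-0.39 to -0.38), and for Clk3 with the block (-0.18) and without replicate 1 (-0.23), but not without replicate 2 (-0.15). In the ZCCHC8 line Clk1 did not pass at 0 min alone (0.26) and Clk4 did (0.43). Clk1 and Clk4 turned negative in the METTL3 line without replicate 1 (-0.038 and -0.017; up to 0.25 and 0.26 without replicate 2) and in the YTHDC1 line at 180 min alone (-0.085 and -0.056). Clk4 in the ZCCHC8 line did so at 180 min alone (-0.0086). Clk3 in the ZCCHC8 line turned negative with RLE factors (-0.0066), no filter (-0.01), DESeq2 (-0.0026), 180 min alone (-0.1) and without replicate 1 (-0.05; 0.075 without replicate 2). The ZCCHC8 minus YTHDC1 difference of Clk2 passed with RLE factors (0.47), the block (0.43) and without replicate 1 (0.43 to 0.49 without either).

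The rise of Clk2 in the METTL3 line passed with RLE factors (0.54), the block (0.52) and without replicate 1 (0.32 to 0.78 without either). From Ctrl libraries alone, Clk1 (1.18), Clk3 (0.87) and Clk4 (1.55) in the METTL3 line and Clk2 (0.67) in the YTHDC1 line no longer passed. The METTL3 label loss difference passed for 0 to 4 members without a replicate, with ranges of -0.31 to -0.044 (Clk1), -0.28 to 0.089 (Clk2), -0.34 to -0.019 (Clk3) and -0.29 to -0.022 (Clk4), and Clk4 was 0.058 on the logit scale. Labelled RNA over the chase turned for Clk4 in the METTL3 line (0.13 with its own TMM factors, 0.039 without replicate 1 and -0.45 without replicate 2), for Clk3 and Clk4 in the YTHDC1 line (0.041 and 0.065 with own factors) and for Clk1 in the ZCCHC8 line (-0.033 without replicate 1 and 0.14 without replicate 2). Fits of labelled or unlabelled RNA without a replicate had no residual degrees of freedom and gave values with no test. Beyond the calls given here and beside the results, the block changed none of the members.

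Numbers of genes called moved more. The level response called 2898 genes in the METTL3 line, and 6994 with the block, 5717 to 7472 without a replicate, 0 at 0 min and 15 at 180 min. It called 746 in the YTHDC1 line, and 3875 with the block, 1335 to 3555 without a replicate, 7 at 0 min, 1 at 180 min and 1156 in DESeq2. It called 5533 in the ZCCHC8 line, and 1583 at 0 min, 2576 at 180 min and 3409 to 5091 without a replicate. The chase called 2322 in the METTL3 line, and 6812 with the block, 4527 to 7511 without a replicate and 28 from Ctrl alone. It called 5821 in the YTHDC1 line, and 9539 with the block, 7402 to 8760 without a replicate and 2302 from Ctrl alone. With 2 replicates a group and 141 to 300 reads of Clk3 in the ZCCHC8 line without chase, small differences could not be resolved.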
